A study of Mus musculus with 162 samples.

Results

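The genes described here are the regulators and the first catalytic step of the pyruvate dehydrogenase complex: the 4 kinases Pdk1, Pdk2, Pdk3 and Pdk4, the 2 phosphatase catalytic subunits Pdp1 and Pdp2, and the E1 subunits Pdha1 and Pdhb. They were chosen by gene symbol, and 8 of the 53686 rows of the count table carry these symbols. Short-term fasting (STF) was studied in 9 organs of adult C57BL/6J male mice aged 8 to 9 weeks. The mice were group-housed, lived in a daily rhythm of 12 h light and 12 h dark, and had water throughout. No transgene or drug was used. In each group 3 mice had been without food for 2, 8, 12, 18 or 22 h, or had fed freely (0 h), which gives 18 mice and an mRNA-seq library of each organ of each mouse. The organs were the olfactory bulb (OB), the brain without brainstem and cerebellum (BRN), the cerebellum (CBL), the brainstem (BST), the stomach (STM), the liver (LIV), interscapular brown adipose tissue (iBAT), and the perigonadal (pgWAT) and posterior subcutaneous (psWAT) white adipose tissues. All mice were killed early in the dark period. Food was therefore withdrawn at a different zeitgeber time in each group, at 11.5 for the 2 h mice, 5.5 for 8 h, 1.5 for 12 h, 19.5 for 18 h and 15.5 for 22 h, so hours without food and the clock time of withdrawal cannot be told apart.

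The pyruvate dehydrogenase complex sits in the mitochondrial matrix and turns pyruvate into acetyl-CoA, the step by which carbon from glucose enters the citrate cycle. The kinases phosphorylate the E1 alpha subunit and switch the complex off, and the phosphatases remove the phosphate and switch it on. Kinase genes, Pdk4 above all, are known for their rise in fasted muscle, heart and liver, where fatty acids replace glucose as the fuel. The data below are mRNA levels and hold no measure of phosphorylation or of enzyme activity.

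Levels are normalized counts per 1000000 gene reads of a library (CPM), after scaling within an organ. The libraries retained held 3045845 to 27801717 gene reads (median 8735554), and 5 shallow libraries were left out (BRN 8 h replicate 3, BRN 18 h replicate 1, STM 12 h replicate 3, iBAT 22 h replicate 1 and psWAT 22 h replicate 2). Of the retained libraries, 1 (psWAT 8 h replicate 1) lay nearer to the mean of another organ, pgWAT, than to its own. Libraries counted as holding another tissue, and so called below, numbered 16, and 8 of them were from psWAT. In them the summed level of that tissue's markers was over 10 times the organ median and over 300 CPM. In psWAT 0 h replicates 1 and 2 and 22 h replicate 3 the list was that of brown fat, and whether they hold brown fat tissue was not tested. Libraries below these limits may hold another tissue too, since the psWAT median of skeletal muscle markers was 1232 CPM. In psWAT the adipocyte markers summed to between 558 and 40125 CPM and immune cell markers to between 376 and 3629 CPM. psWAT 12 h replicate 3 also held 4643 CPM of cerebellar markers against an organ median of 1.13 CPM. In LIV the hepatocyte markers summed to 78297 to 102604 CPM in the early and late libraries, while in pgWAT the adipocyte markers ran from 5350 to 75565 CPM. pgWAT 18 h replicate 2 held 4648 CPM of hepatocyte markers against an organ median of 29.4 CPM, and iBAT 12 h replicate 3 held 13123 CPM of skeletal muscle markers against 1246 CPM. In whole organs, fewer cells of a type and less RNA per cell cannot be told apart.

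All 8 genes are protein coding, and their positions are those of the Gencode annotation of GRCm38. Pdk1 lies at chr2:71873224-71903858 on the plus strand, Pdk2 at chr11:95026258-95041354 on the minus strand, Pdk3 at chrX:93764607-93832201 on the minus strand and Pdk4 at chr6:5483351-5496309 on the minus strand. Pdp1 lies at chr4:11958184-11966452 on the minus strand and Pdp2 at chr8:104591451-104599026 on the plus strand. Pdha1 lies at chrX:160122209-160138413 and Pdhb at chr14:8165996-8173025, both on the minus strand. Reads were counted over exons. Gm11513 overlaps Pdk2 and Map3k15 overlaps Pdha1, each on the opposite strand, and how strand was used in counting is not given in the sources used here, so reads in those shared stretches cannot be assigned with certainty.

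The promoters of Pdk4 and Pdk2 are printed because these kinases took the largest share of the kinase mRNA, Pdk4 in iBAT and Pdk2 in 7 other organs, as described below. The sequences are those of RefSeq on GRCm38.p6, 5′ to 3′ on the gene's own strand. Pdk4 is shown at chr6:5496310-5496528 (219 bases, where 31 bases that reach into the annotated gene were removed) and Pdk2 at chr11:95041372-95041621 (250 bases). Capitals mark the CCAAT box (CCAAT, or ATTGG on the other strand) and, in Pdk2, the E-box (CACGTG).
Pdk4: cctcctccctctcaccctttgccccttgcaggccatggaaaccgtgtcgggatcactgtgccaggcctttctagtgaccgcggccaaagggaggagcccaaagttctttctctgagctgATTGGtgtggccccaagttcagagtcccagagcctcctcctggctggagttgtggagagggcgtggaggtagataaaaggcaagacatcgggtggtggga
Pdk2: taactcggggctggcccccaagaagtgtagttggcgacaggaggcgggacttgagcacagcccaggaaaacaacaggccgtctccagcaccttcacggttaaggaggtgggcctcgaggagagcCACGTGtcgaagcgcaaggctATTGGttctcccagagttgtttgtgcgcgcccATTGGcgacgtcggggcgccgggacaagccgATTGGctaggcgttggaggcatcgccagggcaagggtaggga
The Pdk4 stretch held 6 CpG and 1 CCAAT box. Pdk2 held 19 CpG, an E-box and 3 CCAAT boxes, the nearest of them 42 bases before the start site. Over 32817 mouse promoters of 250 bases the median was 6 CpG, 33.8% held a CCAAT box and 6.02% an E-box on either strand. Neither of the letters TGTTTAC (a FoxO core, in 3.16% of promoters) and AAGGTCA (a nuclear receptor half-site, in 4.08%) was found in the Pdk4 stretch. A match of letters is a description of the sequence and not a bound site.

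Levels differed far more between organs than between fasting times. Of the variance of the log2 level over the retained libraries, between 71% (Pdk2) and 97.0% (Pdp1) lay between organs, while fasting time within an organ held between 0.844% (Pdk3) and 6.32% (Pdp2). The highest mean was in iBAT for 6 of the 8 genes, all but Pdk3 (OB) and Pdp1 (BRN). Organs of the same 18 mice were compared in order of the mean, neighbour against neighbour, by a paired sign-flip permutation test (two-sided, Benjamini-Hochberg adjusted over 64 steps), and 40 of the 64 steps passed. Levels were scaled within each organ, and with scaling over all libraries the highest organ stayed that of 8 genes and the lowest that of 6, while the whole order was kept for 1.

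Pdk4, the kinase known for its rise in fasting, spanned 275-fold between its highest and lowest organ. Its mean was 1245 ± 575 CPM in iBAT (SD, n = 17), 130 ± 150.9 in psWAT (n = 17), 35.9 ± 21.1 in STM (n = 17), 32.9 ± 11.8 in pgWAT (n = 18) and 24.2 ± 5.23 in BST (n = 18). It was 13.46 ± 2.67 in CBL (n = 18), 8.30 ± 4.12 in BRN (n = 16), 6.55 ± 0.972 in OB (n = 18) and 4.53 ± 3.51 in LIV (n = 18). iBAT exceeded psWAT by 9.61-fold in the means and in 16 of 16 mice (adjusted p = 0.000226). BST exceeded CBL in 18 of 18 mice (1.80-fold, adjusted p = 0.000142). STM and pgWAT (adjusted p = 0.964) and BRN and OB (adjusted p = 0.982) did not differ beyond the spread between mice. The low end, LIV, was a step below OB in 13 of 18 mice (adjusted p = 0.00847).

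Pdk2, the broadly expressed kinase, ranged over less. It was highest in iBAT at 340 ± 53.0 CPM and lowest in psWAT at 72.6 ± 56.8 CPM, a span of 4.68-fold. CBL stood out among the brain parts at 225 ± 22.1 CPM, 1.86-fold over BST in 18 of 18 mice (adjusted p = 0.000142). BST, LIV, BRN and OB lay within 106 to 121.2 CPM, and none of the 3 steps between them passed (adjusted p from 0.0717 to 0.884). Libraries of psWAT ran from 13.6 to 190 CPM, and the highest was the library with cerebellar markers.

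Pdk1, a kinase known as a target of hypoxia signalling, had the same span as Pdk2, 4.68-fold, in another order. iBAT (144.9 ± 25.6 CPM) and psWAT (138.5 ± 35.4 CPM) did not differ beyond the spread (1.05-fold, adjusted p = 0.320), and psWAT exceeded LIV (54.4 ± 13.1 CPM) in 17 of 17 mice (adjusted p = 0.00016). No step passed from LIV through pgWAT, BRN and STM to OB.

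Pdk3, a kinase whose gene lies on the X chromosome, had its 4 highest means in the brain parts. It was 43.2 ± 4.12 CPM in OB, 38.2 ± 3.99 in BST, 33.02 ± 2.35 in CBL and 29.3 ± 5.73 in BRN, and each step in that order passed (adjusted p from 0.000701 to 0.0224). STM followed at 22.03 CPM, 1.33-fold below BRN in the means (adjusted p = 0.00128), and pgWAT at 21.1 CPM. The steps from STM to pgWAT and from pgWAT to psWAT did not pass (adjusted p = 0.380 and 0.251). iBAT held 1.88 ± 0.936 CPM, below psWAT (18.7 ± 7.13 CPM) in 16 of 16 mice (adjusted p = 0.000213). In LIV the gene had 0 to 5 reads per library, 9 of the 18 libraries had none (a count of 0 there allows up to 0.241 to 0.409 CPM), and it was not tested in that organ. iBAT and LIV, the organs with the least Pdk3, were the highest and the lowest organ for Pdk4.

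The 2 phosphatases were highest in different organs. Pdp1, the calcium-stimulated isoform, was 147.1 ± 27.2 CPM in BRN, 80.4 ± 5.77 in BST, 77.7 ± 7.11 in CBL and 73.0 ± 9.45 in OB. It was 24.2 ± 4.93 CPM in pgWAT, below OB in 18 of 18 mice (3.02-fold, adjusted p = 0.00016), 9.60 ± 2.47 CPM in iBAT and 1.17 ± 0.586 CPM in LIV, where libraries held 3 to 24 reads. iBAT exceeded LIV in 17 of 17 mice (adjusted p = 0.000142). Pdp2, the isoform known to respond to insulin, was highest in iBAT (67.8 ± 13.2 CPM) and next in LIV (34 ± 7.07 CPM, 1.99-fold lower in the means, 17 of 17 mice, adjusted p = 0.000142). BRN was its lowest organ at 6.56 ± 2.72 CPM, below BST in 16 of 16 mice (adjusted p = 0.000197).

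Pdha1 encodes the E1 alpha subunit that the kinases phosphorylate, and Pdhb encodes its E1 beta partner. Pdha1 was 2247 ± 397 CPM in iBAT and 521 ± 110 in pgWAT, a 4.31-fold step in 17 of 17 mice (adjusted p = 0.000142), and 110.96 ± 14.9 CPM in LIV, its lowest organ. Pdhb was 787 ± 128 CPM in iBAT, 222 ± 58.7 in pgWAT and 73.1 ± 11.1 in STM, its lowest organ. Per kb of exon, the ratio of Pdha1 to Pdhb was 1.04 ± 0.161 in LIV and 3.67 ± 0.565 in STM (SD over libraries), with the other organs between.

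**Figure D1:**
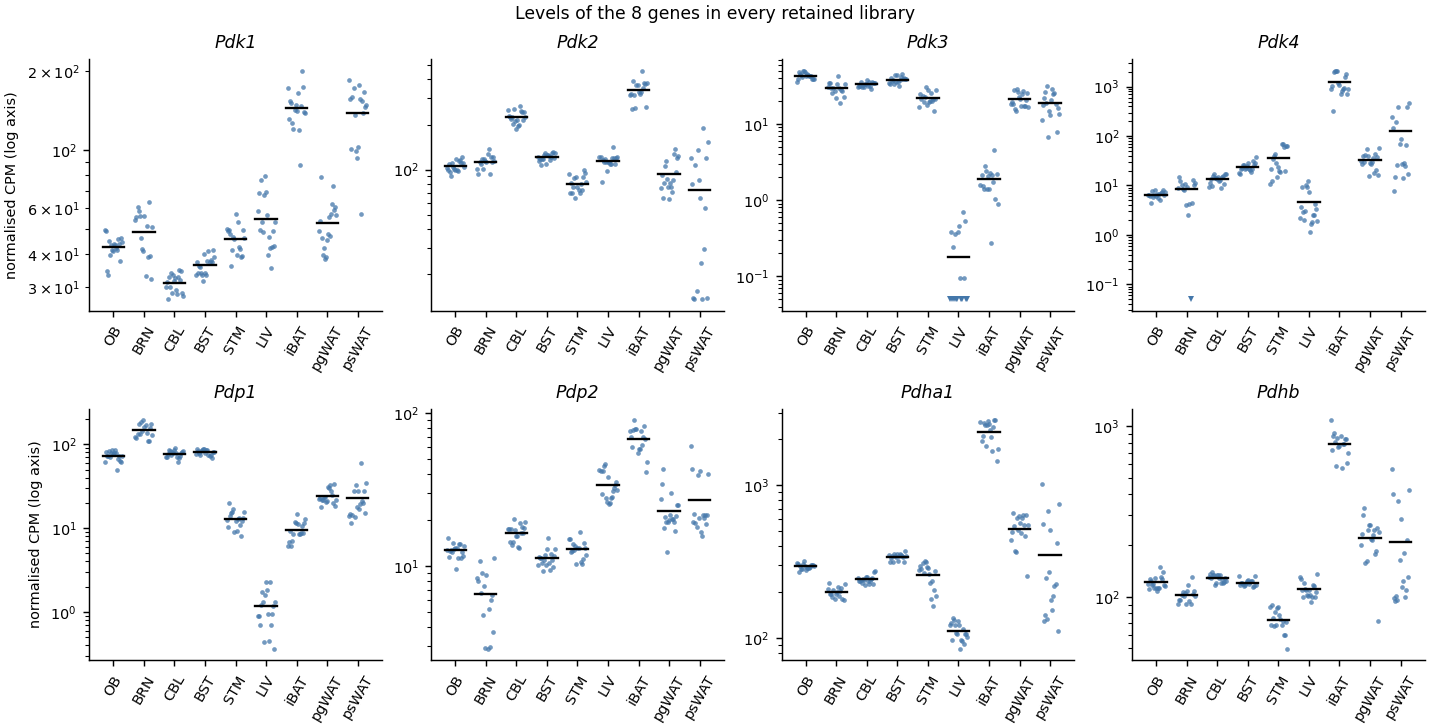
Level of each of the 8 genes in 9 organs, in normalized CPM on a log axis, with a point for each retained library and a black bar for the organ mean. Triangles at 0.05 CPM stand for libraries below that level. iBAT had the highest mean for 6 of the 8 genes, OB for Pdk3 and BRN for Pdp1, and the psWAT points spread widely for Pdk2, Pdk4, Pdha1 and Pdhb.

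Levels of different genes were compared per kb of exon, as the share of each kinase in the sum of the 4. Pdk2 led in every retained library of 7 organs. Its share was 58 ± 2.73% in OB, 64.1 ± 4.67% in BRN, 77.3 ± 2.33% in CBL, 59.2 ± 2.42% in BST, 51.4 ± 7.68% in STM, 81.2 ± 5.15% in LIV and 54.1 ± 6.08% in pgWAT (SD over libraries). In iBAT Pdk4 led in 17 of 17 libraries with 70.8 ± 9.48% (47.8% to 85.7%), and Pdk2 held 24.7 ± 7.85%. In psWAT no kinase led throughout: Pdk4 led in 8 libraries, Pdk1 in 7 and Pdk2 in 2 of 17, and the share of Pdk4 ran from 7.79% to 65.1%. The psWAT order also turned on the length scaling, since without division by length Pdk1 had the highest mean share there. Pdk3 held 29.3 ± 2.81% in OB, 23.02 ± 2.08% in BST, 20.4 ± 3.03% in BRN, 17.3 ± 3.603% in STM, 15.8 ± 4.64% in pgWAT, 14.1 ± 1.60% in CBL and 0.167 ± 0.0878% in iBAT.

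Early (0 and 2 h) and late (18 and 22 h) shares were compared by an exact permutation test over mice (two-sided), and 0 of 36 organ and kinase pairs passed after Benjamini-Hochberg adjustment, with 6 at an unadjusted p under 0.05. With 36 tests a lone pair could not have passed even at the smallest p these group sizes allow (0.00216), so the 0 does not show that the shares were stable. The smallest p found was that of Pdk1 in LIV, where its mean share was 17.2% early and 12.7% late (exact permutation p = 0.00649, adjusted p = 0.221). The share of Pdk4 in STM was 16.1 ± 7.60% early and 27.7 ± 8.21% late (exact permutation p = 0.0368, adjusted p = 0.221).

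Of the summed phosphatases per kb, Pdp1 held 96.4 ± 1.68% in BRN, 85.5 ± 2.18% to 90.0 ± 1.13% in the other brain parts, 51.4 ± 12.9% to 57.3 ± 8.86% in STM and the white fats, 15.7 ± 5.62% in iBAT and 4.24 ± 2.28% in LIV. The kinase sum over the phosphatase sum, both per kb, was 1.69 ± 0.307 in BRN, 3.18 ± 0.461 in OB, 10.0 ± 2.39 in STM and 33.9 ± 9.05 in iBAT. The ratio in every iBAT library (15.3 or higher) lay above the range of BRN (1.17 to 2.32). These ratios are of mRNA and carry no measure of the enzymes.

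**Figure D2:**
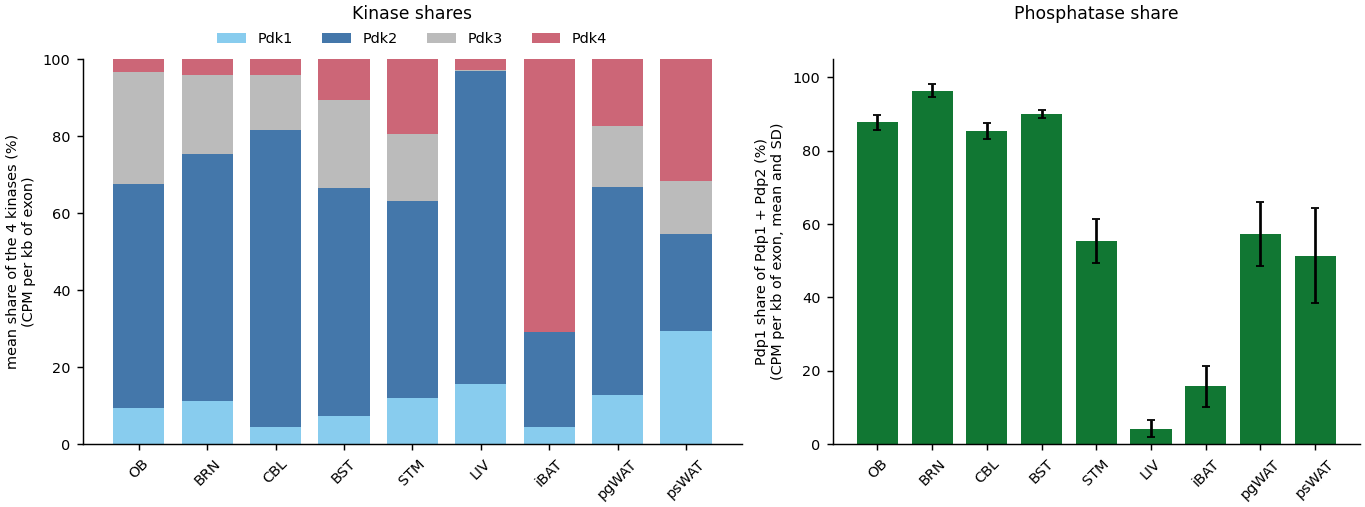
Mean share of each kinase in the sum of the 4 kinases per kb of exon (stacked bars, percent) and mean share of Pdp1 in the sum of the 2 phosphatases per kb (bars with SD over libraries, percent), by organ. Pdk2 takes the largest kinase share in 7 organs and Pdk4 in iBAT with 70.8%, and Pdp1 ranges from 96.4% in BRN to 4.24% in LIV.

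Change with fasting was tested per organ with edgeR over all genes kept in that organ, and 71 of the 72 pairs of gene and organ could be tested. The first question was whether a gene differed among the 6 times. In this joint test 6 of 71 pairs were called at an adjusted p under 0.05 (8.45%, against 7.34% of all gene tests over the 9 organs), and 23 had an unadjusted p under 0.05 (against 23.3% of all gene tests). The second was whether late mice (18 and 22 h) differed from early mice (0 and 2 h). Here 6 of 71 were called, 2 higher and 4 lower late (8.45%, against 9.36% of all gene tests, 4.59% higher and 4.77% lower), and 17 had an unadjusted p under 0.05 (against 24.5% of all gene tests). The shares called were near those of genes at large. Each time against 0 h gave 5 calls in 355 tests, 2 higher and 3 lower (1.41%, against 2.42% of all gene tests, 1.2% higher and 1.22% lower), and 46 had an unadjusted p under 0.05 (against 13.2% of all gene tests). Of these 17 calls, none was kept in each of the 3 fits that leave out a replicate number at every time. Called genes were in STM, LIV and iBAT, where 22.7%, 15% and 36% of all genes were called late against early, and 6.55%, 16% and 29% in the joint test. No member was called in OB, BRN, CBL, BST, pgWAT or psWAT, where 4.87%, 7.43%, 2.48%, 0.0775%, 0.00609% and 0% of all genes were called late against early and 15.4%, 0.00597%, 2.99%, 0.107%, 0% and 0% in the joint test. Within those organs 9 of 48 pairs in the late against early test and 14 in the joint test had an unadjusted p under 0.05, against 18.4% and 18.9% of all gene tests there. With DESeq2 in place of edgeR 4 of these pairs were called in the joint test, Pdk3 in OB, where DESeq2 called 22.5% of all genes, and Pdk1, Pdk2 and Pdp2 in pgWAT, where it called 3.39%.

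Pdk4 in STM made the largest change among the calls. Its level in the 3 mice was 10.6, 21.7 and 12.5 CPM at 0 h, 35.1, 40.1 and 43.6 at 2 h, 27.99, 15.2 and 23.3 at 8 h, 19.8 and 18.5 (2 mice) at 12 h, 69.9, 67.6 and 59.4 at 18 h, and 19.6, 62.2 and 63.3 at 22 h. The level was high at 2 h, low again at 12 h and highest at 18 h, and 1 of the 22 h mice lay within the range of the fed mice. Late mice exceeded early mice by 1.21 on the log2 scale (SE 0.249, adjusted p = 0.00378), and 5 of 6 late mice lay above all 6 early mice. At 18 h the difference from 0 h was 2.12 (SE 0.364, adjusted p = 0.00354, with 14.3% of all genes called), and the joint test gave an adjusted p of 0.0114. Without STM 18 h replicate 1 the joint call was lost (adjusted p = 0.0525), and the late against early call was kept when any 1 of the 17 libraries was left out, but not without replicate 3 of every time (adjusted p = 0.116). At 2 h, where 0% of genes were called, the difference of 1.40 had an unadjusted p of 0.00119 and an adjusted p of 0.748.

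The STM libraries of 0 h, 2 h and 8 h replicates 1 and 2 carry another lane number than the later ones, so late against early and lane cannot be told apart: with lane in the fit the difference was 1.10 (adjusted p = 0.90), and the 18 h call (2.02, adjusted p = 0.567) and the joint call (adjusted p = 0.922) were lost as well. The joint call was also lost without any 1 replicate number (adjusted p from 0.0633 to 0.318) and the 18 h call without replicate 1 or 3 (adjusted p = 0.0977 and 0.117). With 22 h alone as the late group it was 0.99 (adjusted p = 0.0714). Within a lane, the 2 h mice (35.1 to 43.6 CPM) lay above the 0 h mice (10.6 to 21.7 CPM), and the 18 h mice (59.4 to 69.9 CPM) lay above the 12 h mice (18.5 to 19.8 CPM). Cell type markers moved in STM as well. Stomach markers summed to 154672 to 271466 CPM early and 87045 to 180267 late (4 of 7 lower), skeletal muscle markers to 401 to 2290 CPM early and 2751 to 5039 late (1 of 10 higher), and adipocyte markers to 110 to 351 CPM early and 92.7 to 132.4 late (6 of 7 lower). Neuron markers summed to 20.6 to 45.3 CPM early and 53.6 to 83.9 late (4 of 4 tested higher), and pancreatic acinar markers to 94.2 to 630 CPM early and 11.6 to 63.1 late (2 of 6 tested lower), so in these lists and in that of muscle the groups do not overlap. Of the other 7 lists, brown fat had 2 of 5 tested markers higher, olfactory bulb 1 of 2 higher (2.87 to 6.44 CPM early and 7.39 to 17.2 late, with no overlap), hepatocyte 1 of 6 lower, and glia 1 of 5 higher and 2 lower (180.4 to 211 CPM early and 103.9 to 188.7 late). Of 32 relations of a member with a marker sum over the 17 STM libraries, 1 passed: Pdhb with adipocyte markers had r = 0.730 and rho = 0.750 (permutation test, adjusted p = 0.0301 and 0.0230), r = 0.642 without the 2 libraries farthest from the median, and 0.580 (n = 8) and 0.772 (n = 9) within lanes. For Pdk4 with adipocyte markers r was -0.588 and rho -0.605 (permutation test, adjusted p = 0.102 and 0.0738). With skeletal muscle markers r was 0.388 and rho 0.493 (permutation test, adjusted p = 0.331 and 0.166), r was 0.556 without the 2 farthest libraries, and within lanes it was -0.03 (n = 8) and 0.519 (n = 9). No marker of these 5 lists was at 0 in every library, and their part in the STM results was not tested otherwise.

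Pdha1 fell in STM. It was 279, 296 and 284 CPM at 0 h, 312, 269 and 322 at 2 h, 180, 235.03 and 161.6 at 18 h, and 207, 276 and 188.1 at 22 h. Of the 6 late mice, 5 lay below all early mice. Late against early the difference was -0.50 on the log2 scale (SE 0.138, adjusted p = 0.0165), and it was called without any 1 of 17 libraries but not without replicate 1 or 3 of every time (adjusted p = 0.257 and 0.243), against 0 h alone (adjusted p = 0.0647), for 22 h alone (adjusted p = 0.189) or with lane in the fit (-0.43, adjusted p = 0.933). Pdhb in STM was 78.1 ± 9.31 CPM early and 63.3 ± 8.70 CPM late (n = 6 each, difference -0.30, adjusted p = 0.0901). The kinases Pdk1, Pdk2 and Pdk3 and both phosphatases did not pass in STM (differences from -0.28 to 0.11).

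In LIV the changes were among the kinases and the insulin-responsive phosphatase. Pdk1 was 58.5, 68.6 and 49.5 CPM at 0 h, 77, 53.1 and 48.4 at 2 h, 67.7, 79.6 and 69.1 at 8 h, 56.4, 39.8 and 46.5 at 12 h, 42.3, 35.3 and 42.7 at 18 h, and 48.9, 43 and 53.3 at 22 h. Late mice were lower by 0.42 on the log2 scale (-0.42, SE 0.118, adjusted p = 0.0201), and 4 of 6 lay below all early mice. The 18 h mice differed from 0 h by -0.55 (SE 0.168, adjusted p = 0.0405, with 9.97% of all genes called). The joint test gave an adjusted p of 0.0152, and the highest time was 8 h.

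Pdp2 in LIV was 42.6, 41.9 and 29.8 CPM at 0 h, 41.9, 45.3 and 46.4 at 2 h, 27.9, 26.2 and 38.5 at 8 h, 25.4, 25.96 and 27.8 at 12 h, 28.3, 30.9 and 32.3 at 18 h, and 34.2, 35.4 and 31.4 at 22 h. All 3 mice of 12 h lay below all 6 early mice, while replicate 3 of 0 h lay among the late mice. Late against early the difference was -0.36 (SE 0.105, adjusted p = 0.0238), at 12 h against 0 h -0.53 (SE 0.150, adjusted p = 0.0251, with 11.9% of all genes called), and the joint test gave an adjusted p of 0.0148. The late against early call of Pdk1 was lost without 0 h replicate 2, 2 h replicate 1 or 22 h replicate 2, and that of Pdp2 without 0 h replicate 1 or 2, 2 h replicate 2 or 3 or 22 h replicate 3. Both calls were also lost against 0 h alone and for 22 h alone. As in STM, lane split the early from the late mice, and with it in the fit the differences were -0.33 for Pdk1 (adjusted p = 0.588) and -0.88 for Pdp2 (adjusted p = 0.0945). The 18 h call of Pdk1 (-0.46, adjusted p = 0.460) and its joint call (adjusted p = 0.166) were lost with lane, and the 12 h and joint calls of Pdp2 were kept (adjusted p = 0.0194 and 0.0375). The 18 h call of Pdk1 was lost without 0 h replicate 1 or 2 or any 18 h library, and the 12 h call of Pdp2 without 0 h replicate 1 or 2 or any 12 h library (adjusted p from 0.0527 to 0.0816 for the latter). Without the 12 h libraries that hold muscle markers (replicates 1 and 2) the 12 h difference of Pdp2 was -0.47 (adjusted p = 0.294) and its joint test gave an adjusted p of 0.0702.

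Pdk4 in LIV was low and uneven. It was 2.18, 3.67 and 9.29 CPM at 0 h, 2.89, 2.00 and 3.07 at 2 h, 10.2, 9.29 and 12.4 at 8 h, 7.42, 1.13 and 1.63 at 12 h, 1.85, 2.50 and 2.57 at 18 h, and 4.12, 3.39 and 1.95 at 22 h. The 8 h mice were the highest group, and the late against early difference was -0.42 (adjusted p = 0.538). The joint test called it (adjusted p = 0.0438), a call that held in 5 of 18 single omissions (those of 0 h replicate 1 or 3 or any 12 h library) and was lost with the replicate block (adjusted p = 0.0607) and with lane in the fit (adjusted p = 0.111). Skeletal muscle markers summed to 953 CPM in 12 h replicate 1, with the high value, and to 384 CPM in replicate 2, the lowest of the LIV libraries for Pdk4, against an organ median of 35.3 CPM. The part of these markers in the Pdk4 levels was not tested. Between early and late LIV mice brown fat markers summed to 83.5 to 203 CPM and 46.7 to 112.9 (1 of 4 tested lower), olfactory bulb markers to 3.17 to 7.10 CPM and 6.66 to 12.4 (the single one tested was higher), and 1 of 6 hepatocyte markers was higher and 1 lower. Their part in the LIV results was not tested.

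In iBAT the phosphatases moved in opposite directions. Pdp1 was 6.16, 6.88 and 9.23 CPM at 0 h, 6.08, 6.98 and 8.54 at 2 h, 12.0, 11.6 and 14.7 at 8 h, 11.3, 8.60 and 8.45 at 12 h, 8.81, 10.7 and 8.75 at 18 h, and 11.5 and 13.0 (2 mice) at 22 h. Late mice were higher by 0.56 on the log2 scale (SE 0.176, adjusted p = 0.0208), 22 h mice exceeded 0 h mice by 0.73 (SE 0.262, adjusted p = 0.0332, with 41% of all genes called), and the joint test gave an adjusted p of 0.0414. The 8 h mice were the highest group, above every early mouse. Leaving out 2 h replicate 1 or 22 h replicate 3 ended the late against early call, as did no filter on low counts (adjusted p = 0.0877) and 0 h alone as the early group (adjusted p = 0.0781). The joint call was kept in 6 of 17 single omissions (those of 0 h replicate 3, 2 h replicate 3, 18 h replicate 2 or any 12 h library). It was lost with the replicate block (adjusted p = 0.0529), with the shallow libraries kept (0.0615), with lane in the fit (0.0888, where 1 of the 5 lane terms could not be estimated) and with no filter (0.149).

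Pdp2 in iBAT was 76.6, 69.5 and 59.8 CPM at 0 h, 78.1, 90.3 and 78.5 at 2 h, 70.5, 82.98 and 68.1 at 18 h, and 41.4 and 48.2 (2 mice) at 22 h. Both 22 h mice lay below every other mouse, the 8 and 12 h mice included, and the 18 h mice overlapped the early ones. Late against early the difference was -0.39 (SE 0.139, adjusted p = 0.0386) and at 22 h against 0 h -0.61 (SE 0.211, adjusted p = 0.0276). The former call held in 9 of 17 single omissions (those of 0 h replicate 3, 18 h replicate 2, 22 h replicate 3 or any 8 or 12 h library) and was lost against 0 h alone (adjusted p = 0.272), with the replicate block (adjusted p = 0.0547), with no filter on low counts and with a gene length trend taken out (-0.19, adjusted p = 0.281). Neither of the 22 h libraries shares a lane number with a library of another time, so lane and 22 h cannot be told apart. The lane term that could not be estimated is that of lane 8, which holds libraries of 0, 8 and 18 h. The lane of 22 h replicate 3 had its own term, which leaves the 22 h values in that fit to replicate 2. With lane the late against early differences were 0.53 for Pdp1 and -0.48 for Pdp2, and neither was called. The 22 h calls of both were lost without 0 h replicate 1 or 2 or 22 h replicate 2, and that of Pdp1 also without 22 h replicate 3. Both were lost too with no filter on low counts, and that of Pdp2 with the length trend taken out. The library of 22 h replicate 2 was shallow, with 3156101 gene reads against a median of 9576245 in the retained iBAT libraries. Its log10 total lay at -1.99 SD from the organ mean, just inside the limit of 2 SD for leaving a library out. It also held the highest adipocyte, brown fat and immune cell marker sums of iBAT.

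Pdk4 in iBAT varied among the times by the joint test (adjusted p = 0.0142), and its late against early difference was -0.20 (adjusted p = 0.572). It was 900, 1021 and 323 CPM at 0 h, 1992, 2085 and 2073 at 2 h, 2124, 1164 and 1074 at 8 h, 718, 833 and 899 at 12 h, 960, 1547 and 1844 at 18 h, and 703 and 905 (2 mice) at 22 h. The 2 h mice were within 1992 to 2085 CPM and above all fed mice. Their difference from 0 h was 1.45 (SE 0.348, unadjusted p = 0.000608, adjusted p = 0.118 with 0.248% of all genes called), and DESeq2 gave an adjusted p of 0.00623. Over all organs DESeq2 called 4.11% of all gene tests of a time against 0 h. The joint call was lost without 22 h replicate 2 (adjusted p = 0.0661), with no filter on low counts (adjusted p = 0.0527) and with lane in the fit (adjusted p = 0.0939).

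Pdha1 in iBAT was 2618, 1965 and 2107 CPM at 0 h, 2420, 2667 and 2677 at 18 h, and 1448 and 1727 (2 mice) at 22 h. The 22 h mice lay below the fed mice, and the 18 h mice above 2 of the 3. Their difference at 22 h was -0.49 (SE 0.202, adjusted p = 0.0602, with 41% of all genes called), and DESeq2 gave an adjusted p of 0.0393. Markers moved in iBAT too. Adipocyte markers summed to 10220 to 13752 CPM early and 13166 to 28213 late (4 of 7 higher), brown fat markers to 5672 to 12415 CPM early and 8381 to 17553 late (3 of 8 higher, 1 lower), and blood markers to 93.9 to 445 CPM early and 134.7 to 650.2 late (2 of 5 higher). Of the other 9 lists, immune cell markers (14.5 to 40.7 CPM early and 32.7 to 63.9 late, 1 of 6 tested higher) and acinar markers (1.81 to 20.4 CPM early and 2.71 to 75.3 late, 1 of 7 higher) had a call, and of the stomach and cerebellar lists the single marker tested in each was lower. Gabra6 and Neurod1, of the cerebellar list, were at 0 in every library. Over the 17 iBAT libraries 0 of 32 relations of a member with the brown fat, adipocyte, muscle or immune sum passed, and 3 had an unadjusted permutation p of r under 0.05. The smallest p was that of Pdp2 with adipocyte markers (r = -0.640 and rho = -0.324, permutation test, adjusted p = 0.153 and 0.644), where r was -0.08 without the 2 libraries farthest from the median.

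**Figure D3:**
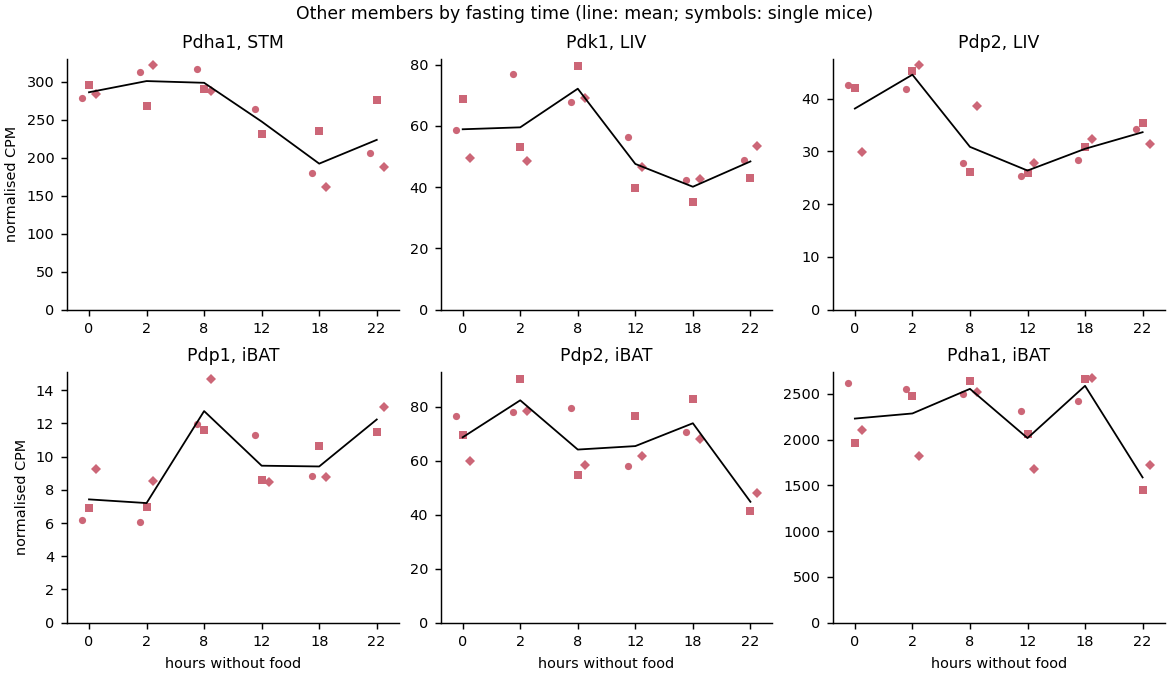
Normalized CPM, on linear axes from 0, of Pdha1 in STM, Pdk1 and Pdp2 in LIV, and Pdp1, Pdp2 and Pdha1 in iBAT against hours without food. Symbols are single mice (circle, square and diamond for replicates 1, 2 and 3) and the line joins the means. Pdha1 in STM was lowest at 18 h, Pdp2 in LIV at 12 h and Pdp2 in iBAT at 22 h.

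In the remaining organs Pdk4 made no change that passed in the edgeR fit used here. In BST it was 18.2, 16.9 and 21.6 CPM at 0 h and 25.8, 28.4 and 38.4 at 22 h, groups that do not overlap (difference 0.71, SE 0.181, adjusted p = 0.256). DESeq2 called it (adjusted p = 0.0254), as it did 4.11% of all gene tests of a time against 0 h over all organs. Late against early its difference in BST was 0.33 (adjusted p = 0.316, and 0.0121 with no filter on low counts). In BRN it was 8.94, 14.8 and 12.1 CPM at 0 h, 0 and 4.42 (2 mice) at 18 h, and 13.0, 10.1 and 11.3 at 22 h, so both 18 h mice lay below the fed and the 22 h mice. The 18 h difference was -2.23 (SE 0.731, adjusted p = 0.0857) with edgeR, and DESeq2 gave an adjusted p of 0.0134, with 1798 of 16749 genes called. Late against early the difference was -0.95 (adjusted p = 0.182), and without replicate 3, which leaves the library at 0 as the single 18 h mouse, edgeR called it lower (-4.62, adjusted p = 0.0118, with 35% of all genes called), a size that depends on the prior count added to that 0. In the BRN library at 0 a count of 0 allows up to 0.985 CPM, and with 3045845 gene reads it was the shallowest retained library. The other 18 h library held 4987342 gene reads, and both are in lane 1, as is 0 h replicate 3 (12.1 CPM). Those of 22 h held 8170296 to 9254029 gene reads, in lanes 2 and 4. Glia markers in BRN summed to 5387 to 11325 CPM early and 6274 to 20869 late (2 of 7 higher). Skeletal muscle markers summed to 71.4 to 164.3 CPM early and 128 to 257 late (1 of 5 tested higher), immune cell markers to 48.9 to 79.8 CPM early and 70.4 to 134.2 late (1 of 6 higher) and brown fat markers to 86.2 to 123.1 CPM early and 87.1 to 116.9 late (2 of 5 higher). The part of these lists in the Pdk4 values was not tested.

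OB, CBL and pgWAT gave flat or overlapping groups for Pdk4. Libraries ran from 4.46 to 8.13 CPM in OB, from 8.89 to 17.4 in CBL and from 15.4 to 56.5 in pgWAT. Late against early the differences were 0.14 in OB (adjusted p = 0.534), 0.15 in CBL (adjusted p = 0.638) and -0.20 in pgWAT (adjusted p = 0.734). Glia markers in CBL summed to 5602 to 7954 CPM early and 6462 to 9704 late (2 of 7 higher), and no other list had a call there. Differences of the Pdk4 response between organs were tested by an exact permutation test over mice, and 0 of 36 pairs of organs passed after adjustment, with 5 at an unadjusted p under 0.05. The smallest p this test allows was 0.00216 to 0.00476, with which a lone pair could not pass over 36 tests. STM against iBAT had the smallest p, with a difference of 1.48 on the log2 scale (exact permutation p = 0.00649, adjusted p = 0.234).

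**Figure D4:**
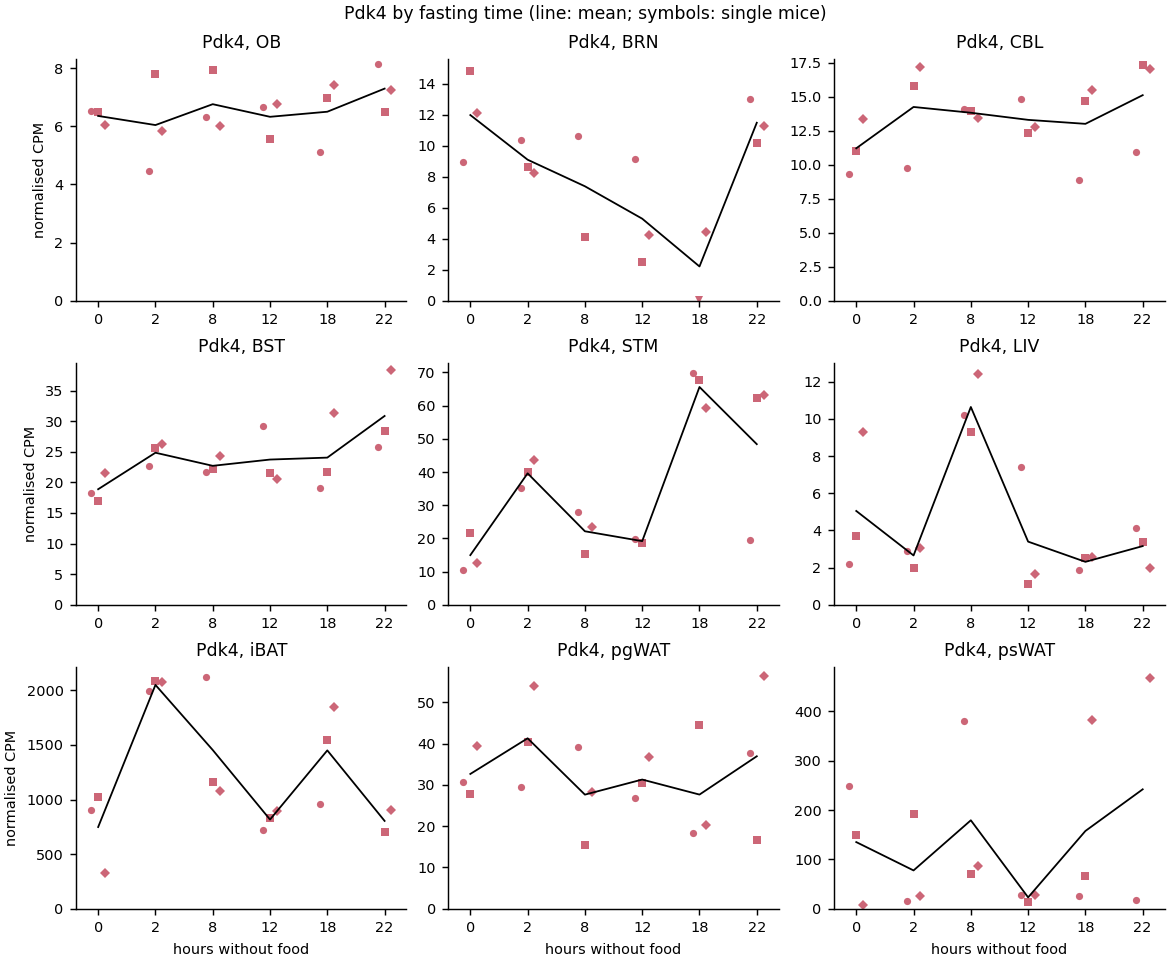
Normalized CPM of Pdk4 against hours without food in each of the 9 organs, on linear axes from 0 that differ between panels. Symbols are single mice (circle, square and diamond for replicates 1, 2 and 3) and the line joins the means. STM was highest at 18 h, iBAT at 2 h and LIV at 8 h, and psWAT mice of the same time were far apart.

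In pgWAT the phosphatase Pdp2 was 27.6, 34.4 and 42.96 CPM at 0 h, 17.6, 20.96 and 19.4 at 2 h, 12.4, 19.5 and 20.1 at 8 h, 21.6, 30.2 and 20.3 at 12 h, 20.4, 19.4 and 16.8 at 18 h, and 21.3, 25.1 and 25.3 at 22 h. All mice of 2, 8, 18 and 22 h lay below the fed mice, and 1 of the 12 h mice lay among them. At 8 h the difference was -1.01 and at 18 h -0.88 (adjusted p = 0.509 and 0.268), and DESeq2 called both (adjusted p = 0.0137 and 0.0276). The share of all gene tests of a time against 0 h that DESeq2 called was 4.11% over all organs. The 18 and 22 h libraries of pgWAT share no lane number with those of 0 h, so in this organ these times and lane cannot be told apart in a comparison with 0 h. Of the 6 late pgWAT libraries 3 hold another tissue (18 h replicate 2 and 22 h replicate 1 liver markers, 22 h replicate 2 muscle markers). Without them the 18 h difference of Pdp2 was -0.90 (adjusted p = 0.106). The kinase Pdk2 in pgWAT was 75.5, 92.7 and 64.5 CPM at 0 h, 80.9, 105.2 and 114.1 at 2 h, 85.0, 127 and 137.3 at 18 h and 97.0, 120 and 123.9 at 22 h (late against early 0.39, adjusted p = 0.174, and 0.42, adjusted p = 0.223, without those 3 libraries). Pdk3 in OB was 35.7, 38.9 and 47.5 CPM at 0 h, 50.1, 50.3 and 48.04 at 8 h and 38.7, 38.97 and 38.8 at 22 h. Its 8 h mice lay above those of 0 and 22 h (joint adjusted p = 0.0575, and 0.0174 with DESeq2). Without 0 h replicate 3, in which the hepatocyte markers summed to 343 CPM, the joint adjusted p was 0.00596, with 3676 of 16746 genes called. The same list had a median sum of 2426 CPM in CBL and 1867 in BST, so this sum alone does not show liver tissue. Of 32 relations of a member with a marker sum over the 18 pgWAT libraries, 6 passed by Pearson's r and 1 by Spearman's rho as well, and none was of Pdp2 or Pdk2. Pdhb with brown fat markers passed by both (r = 0.813 and rho = 0.761, permutation test, adjusted p = 0.00032 and 0.0109), with r = 0.715 without the 2 libraries farthest from the median and 0.880 and 0.924 within lanes (n = 8 each). For Pdha1 with brown fat, and for both E1 genes with adipocyte and immune cell markers, r was 0.720 to 0.840 and rho did not pass, and r was 0.226 to 0.573 without the 2 farthest libraries. The part of these markers in the pgWAT levels was not tested otherwise. As in STM, the OB libraries of 0 h, 2 h and 2 of 8 h carry another lane number than the later ones.

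Pdk4 in psWAT differed more between mice of one time than between times. It was 248.6, 148.8 and 7.76 CPM at 0 h, 14.8, 192.1 and 26.01 at 2 h, 380, 70.7 and 87.4 at 8 h, 26.9, 14.1 and 27.99 at 12 h, 25.3, 65.8 and 382 at 18 h, and 17.2 and 467 (2 mice) at 22 h. High and low mice stood side by side at every time but 12 h. Late against early the difference was 0.93 with an SE of 1.00 (adjusted p = 0.920), and without 22 h replicate 3 it was -0.98. Pdha1 followed the same libraries, at 1015, 558 and 129 CPM at 0 h and at 111.9 and 757 (2 mice) at 22 h.

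The psWAT libraries high in Pdk4 were also high in brown fat markers, which summed to between 21.4 and 2212 CPM. Over the 17 libraries, on log scales, Pearson's r of Pdk4 with that sum was 0.871 and Spearman's rho 0.90 (permutation test, adjusted p = 0.00024 and 0.00016 over 32 relations). Without the 2 libraries farthest from the median r was 0.844, and within lanes it was 0.756 (n = 10) and 0.865 (n = 6). Of the 32 relations 20 passed by both measures. With the brown fat sum r was 0.964 for Pdha1, 0.923 for Pdhb, 0.817 for Pdp2 and 0.800 for Pdk2, and within lanes it was 0.671 or higher for each. For Pdk3 r was -0.681 and rho -0.760 (permutation test, adjusted p = 0.00599 and 0.00189), and within lanes r was -0.38 (n = 10) and -0.61 (n = 6). For Pdk1 r was 0.104 and for Pdp1 0.267 (permutation test, adjusted p = 0.724 and 0.345). With skeletal muscle markers, which summed to between 23.4 and 38282 CPM, r of Pdk4 was 0.660 and rho 0.662 (permutation test, adjusted p = 0.00809 and 0.00943), and within lanes r was 0.565 (n = 10) and 0.759 (n = 6). With adipocyte markers r of Pdk4 was 0.698 and rho 0.706 (permutation test, adjusted p = 0.00599 and 0.0050), and within lanes r was 0.332 (n = 10) and 0.835 (n = 6). For Pdha1 with adipocyte markers r was 0.870. With immune cell markers r of Pdk4 was -0.630 and rho -0.794 (permutation test, adjusted p = 0.0111 and 0.000686), and within lanes r was -0.24 (n = 10) and -0.75 (n = 6), weak in the lane with more libraries. The brown fat list holds Cpt1b and Ppargc1a, which muscle also expresses. No marker of these 4 lists was at 0 in every library, and their part in the psWAT levels was not tested.

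Without the 8 psWAT libraries counted as holding another tissue, 9 remained. Of these 1 was at 0 h, since 0 h replicates 1 and 2 were counted for their brown fat markers. In that fit, chosen after the data were seen, 6 members (Pdha1, Pdhb, Pdk2, Pdk4, Pdp1 and Pdp2) were higher at 8 h than at 0 h, and 5452 of 15836 genes (34.4%) were called. The Pdk4 difference was 4.96 (adjusted p = 0.0371). All 6 calls rest on the single fed library, which held 7.76 CPM of Pdk4, whereas the other fed libraries held 148.8 and 248.6 CPM. Of the pair of 8 h libraries in that fit, replicate 1 is the one that lay nearer to pgWAT.

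**Figure D5:**
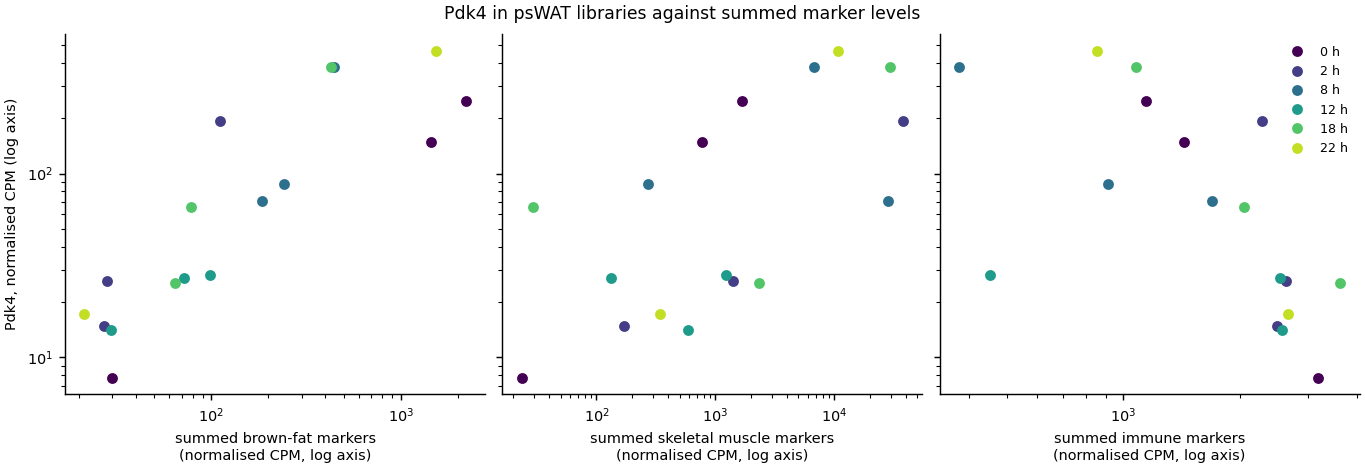
Pdk4 against the summed brown fat, skeletal muscle and immune cell markers in the 17 psWAT libraries, in normalized CPM on log axes, coloured by hours without food. Pdk4 rises with the brown fat sum (r = 0.871) and with the muscle sum (r = 0.660), and falls with the immune sum (r = -0.630).

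Other genes of pyruvate and fat use, 67 in 8 lists, were read in the same test of late against early mice. In STM 24 of 66 were lower and 4 higher, against 1960 lower and 1736 higher of all 16281 genes. The median over the lists was -0.30 and that over all genes 0.01. The lower genes were 3 of the 4 other subunits of the complex, 8 of 13 citrate cycle enzymes, 4 of 8 enzymes that make or use pyruvate, 2 of 5 pyruvate carriers, 5 of 16 genes of fat use and 1 each of the lipoylation enzymes and the branched-chain ketoacid complex. The smallest adjusted p were those of Pcx (pyruvate carboxylase, -1.01, adjusted p = 0.00077), Suclg1 (succinyl-CoA ligase, -1.09, adjusted p = 0.000925) and Mdh2 (malate dehydrogenase, -0.80, adjusted p = 0.00169). The 4 higher genes, which rose beside Pdk4, were 2 of the genes of fat use and 2 of the FoxO and glucocorticoid list. Lane split the early from the late STM mice here too, and with it in the fit edgeR called no listed gene and no gene at all (3 of 66 at an unadjusted p under 0.05). The median over the lists was -0.27 in that fit, against -0.30 without lane. The stomach, muscle, neuron and acinar marker sums given above for STM moved between the same mice, and their part in these counts was not tested.

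In iBAT 13 of 66 were higher and 8 lower, against 2407 and 2823 of 14529 genes. Acot1, an acyl-CoA thioesterase, rose by 1.69 (adjusted p = 0.00614), Sdhb, a subunit of succinate dehydrogenase, by 0.77 (adjusted p = 0.00706), and Cpt1a, which takes fatty acids into mitochondria, changed by -0.93 (adjusted p = 0.00304). For Cpt1a 2 of 5 late mice lay above and 2 below all early mice. The adipocyte and brown fat marker sums of iBAT given above moved between the same mice, and their part was not tested. The 22 h libraries stand alone in their lanes, and with the lane terms that could be fitted 11 were higher and 7 lower, against 2312 and 3371 of all genes. In LIV 5 of 64 were lower and none of the 64 higher with edgeR, against 1010 and 1088 of 14023 genes. They included Pklr (liver pyruvate kinase, -0.68, adjusted p = 0.0107), Etfdh (electron transfer from fatty acid oxidation, -0.65, adjusted p = 0.0173) and Suclg1 (-0.51, adjusted p = 0.0193). With lane in the fit edgeR called 0 of the 64 (12 at an unadjusted p under 0.05) and 8 of all genes. The median over the LIV lists was -0.16 in that fit and 0.0043 without lane.

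The brain parts and white fats gave 7 calls or fewer in these lists. In BRN 6 of 65 were higher and 1 lower, against 869 and 375 of 16749 genes, with Pkm (0.50, adjusted p = 0.0157), Mdh2 (0.55, adjusted p = 0.0158) and Bckdha (0.61, adjusted p = 0.0274) first. The marker sums of BRN given above, glia among them, moved between the same mice. Neuron markers there summed to 5208 to 5592 CPM early and 3391 to 5368 late (0 of 7 called). Their part in these counts was not tested. In CBL, where 2.48% of all genes were called, 2 of 64 were higher, Ucp3 (0.72, adjusted p = 0.0347) and Txnip (0.72, adjusted p = 0.0389), and Mpc1, of the mitochondrial pyruvate carrier, was lower (-0.37, adjusted p = 0.0429). In OB Sdhb was higher (0.27, adjusted p = 0.0370), 1 of 65 against 389 higher and 426 lower of 16742 genes. Among the OB markers 1 of 7 for glia was higher and 1 lower, and 1 of 7 for neurons was higher. The part of these OB markers was not tested. Without OB 0 h replicate 3, the library with the high hepatocyte marker sum, 3 of 65 were higher and 2 lower, against 759 and 849 of 16746 genes. With lane in the fit edgeR called no gene in OB or BRN (4 and 12 of the 65 listed at an unadjusted p under 0.05). The median over the lists was 0.117 with lane and 0.084 without it in OB, and 0.069 and 0.077 in BRN. No listed gene was called in BST, pgWAT or psWAT with edgeR, where 13 of 65, 6 of 66 and 1 of 65 had an unadjusted p under 0.05. The lane fits of these lists and those without libraries that hold another tissue were chosen after the data were seen.

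The genes whose time course was most like that of Pdk4 were Pard3 (Pearson's r = 0.72), Zfhx4 (0.71), Map3k20 (0.70), Msrb3 (0.69) and Ppfibp1 (0.68), among 11678 genes kept in all 9 organs. The measure was taken over 54 means of organ and time after each organ's own mean was subtracted, and the points of an organ share its libraries. Within single organs the likeness was uneven: r of Pard3 was 0.97 in BRN and -0.04 in CBL, and that of Msrb3 was 0.76 in STM and -0.64 in BST. In BRN r of the 5 genes was 0.85 to 0.97, in STM 0.67 to 0.93 and in psWAT, where 8 libraries hold another tissue, 0.69 to 0.89.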

How the data were processed

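Poly(A) RNA of 162 libraries was sequenced in pairs. The deposited table holds raw read counts per gene, made by the authors with TopHat2 2.1.1, HTSeq 0.9.1 over exons with unique reads, GRCm38.p5 and Gencode; how strand was set is not given in the sources used here. White fat RNA was extracted with another kit than that of the other organs. Libraries whose log10 total lay over 2 SD below the organ mean were left out. Genes were kept where at least 3 libraries reached the CPM that equals 10 counts in a library of median size. edgeR 4.0.16 (R 4.3.3, TMM scaling, robust quasi-likelihood test, Benjamini-Hochberg adjustment over all kept genes of an organ, threshold 0.05) compared late with early mice, each time with 0 h, and all 6 times. Permutation tests were run in NumPy 2.4.6, with SciPy 1.17.1 for ranks, over 100000 resamples or all arrangements. Those of organs used log2(CPM + 0.5), and those of kinase shares used the shares in percent. DESeq2 1.42.0, other scaling, no filter, all libraries, a replicate block, lane, a gene length trend, removal of libraries that hold another tissue, single omissions and other time groupings were alternatives. The edgeR script was tested on simulated data. Named genes were the members, the 3 list genes of smallest adjusted p per organ and the 5 most like Pdk4. Members and lists were chosen with earlier results of these data known. Organs of a mouse were paired by the animal number of the labels. Replicates are separate mice, and the labels do not say whether they shared a cage. Replicate numbers name different mice at each time and do not pair them. Sequencing reads are not independent molecules, so floors cover counting error only.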

Additional observations from a re-analysis of the deposited data

Results flagged for a closer look

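Within the early (0 and 2 h) and late (18 and 22 h) mice of an organ, 14 groups of libraries held 1 far from the rest by Dixon's criterion, where chance gives about 1 in 20 (7.1 groups). LIV 0 h replicate 3 stood apart for 4 genes: it was the highest early library for Pdk4 (9.29 CPM) and the lowest for Pdk2 (82.5 CPM), Pdp2 (29.8 CPM) and Pdha1 (97.2 CPM). pgWAT 0 h replicate 3 was the highest early library for Pdk1 (79.0 CPM) and the lowest for Pdp1 (17.9 CPM). STM 22 h replicate 1 was the lowest late library for Pdk4 (19.6 CPM). The other libraries that stood apart were the highest of their group for Pdk1 in pgWAT 18 h replicate 3 (73.1 CPM), Pdk3 in pgWAT 2 h replicate 1 (28.3 CPM), Pdp1 in psWAT 2 h replicate 2 (27.6 CPM), Pdp2 in OB 0 h replicate 2 (15.3 CPM), Pdp2 in psWAT 22 h replicate 3 (40.1 CPM) and Pdhb in BST 0 h replicate 1 (133.02 CPM), and the lowest for Pdk2 in iBAT 22 h replicate 2 (260.2 CPM). psWAT 2 h replicate 2 and psWAT 22 h replicate 3 are among the libraries that hold another tissue.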

How the results depend on the processing

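The joint test called 6 pairs of gene and organ, late against early 6 and each time against 0 h 5. With DESeq2 these counts were 13, 6 and 14, against 15.4%, 12.5% and 4.11% of all gene tests. With no filter on low counts each time against 0 h gave 8 (all genes 2.18%). With lane as a covariate, of which 1 term in iBAT could not be estimated, the counts were 1, 0 and 1 (all genes 3.77%, 4.23% and 1.08%). Without libraries that hold another tissue, an alternative chosen after seeing the data, the joint test gave 12 and each time against 0 h 11 (all genes 11.7% and 3%), of which 6 in each are in psWAT, where 1 library was left at 0 h. Leaving out a replicate number gave 0 to 4, 1 to 5 and 1 to 11 calls, with fewer samples (all genes 2.73% to 6.71%, 3.85% to 8.84% and 0.902% to 3.45%), and single omissions gave 3 to 7 for each time against 0 h, with 3 calls without LIV 0 h replicate 1 or 2, iBAT 0 h replicate 1 or 2, or iBAT 22 h replicate 2. Single omissions of 8 and 12 h libraries, and those in the joint test and each time against 0 h, were chosen after seeing the data. With 0 h alone as the early group there was 1 call (Pdk4 in STM, all genes 6.44%), and with 22 h alone as the late group 3 (all genes 6.23%), each of them in iBAT, where 47.8% of all genes were called (Pdp1, Pdp2 and Pdha1, which was not called late against early). The replicate block gave 5, 5 and 5 calls (all genes 7.1%, 9.76% and 2.48%). The labels give the mice of different times no shared batch by that number, so the numbers were not taken as pairs. In each organ at least 1 same-numbered pair of libraries had deviations with a negative correlation (lowest from -0.71 in psWAT to -0.20 in iBAT). Being the lowest of many pairs, these values cannot decide whether the numbers share a batch. In iBAT the mean correlation was 0.155 for the same number and -0.078 for other numbers, and elsewhere it was -0.065 to 0.025 for the same number. The steps between organs that passed numbered 40, 38 without the pairing of organs by animal, 33 with the shallow libraries kept and 34 with scaling over all libraries. Shares of a kinase and pairs of organs gave 0 calls under the alternatives run. A lone call could pass in 1 of these, pairs of organs without that pairing (lowest adjusted p = 0.264), and the others say nothing about stability.

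The late against early difference of Pdk4, not called in these organs, changed sign in BRN with 22 h alone (0.14), in LIV without replicate 3 (0.091, the range over replicate numbers being -0.66 to 0.091), in iBAT without replicate 1 (0.010) or 2 (0.027) (range -0.56 to 0.027) and against 0 h alone (0.53), in pgWAT with 22 h alone (0.0049), and in psWAT without replicate 3 (-2.36, range -2.36 to 2.14), with lane (-0.36) and without 22 h replicate 3 (-0.98). The cause was not tested. Depth limits Pdk3 and Pdp1 in LIV, with 0 to 5 and 3 to 24 reads a library.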
